A study of Bos taurus with 20 samples.

Results

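Fat is stored in cells as droplets of triacylglycerol, each wrapped in a single phospholipid layer that carries coat proteins of the perilipin and CIDE families. Stored fat is released by lipases acting in series: ATGL (encoded by PNPLA2) removes the first fatty acid, hormone-sensitive lipase (LIPE) the next, and monoglyceride lipase (MGLL) the last. In fat cells perilipin 1 holds the co-activator CGI-58 (ABHD5) away from ATGL until the cells are stimulated, and the small protein G0S2 inhibits ATGL directly.

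The transcripts of these 10 genes, 5 droplet coat genes (PLIN1, PLIN2, PLIN3, PLIN4 and CIDEC) and 5 genes of lipolysis (PNPLA2, ABHD5, G0S2, LIPE and MGLL), were examined in clonal MSC (mesenchymal stem cell) populations from bovine fat. They were taken by gene symbol from a table of 33063 named genes, and all 10 were found in it. The table holds 20 clones, each grown from a single sorted MSC of visceral fat of Holstein Friesian x Aberdeen Angus calves in medium with serum and bFGF. The 10 Adipogenic (A) clones stained strongly for lipid when samples of them were driven to differentiate, and the 10 Non-adipogenic (N) clones did not stain. RNA came from a part of each clone that had not been differentiated, so the values describe A and N clones before any adipogenic stimulus. Animals 17 and 20 gave 1 A and 1 N clone each, and animals 22 and 23 gave 4 A and 4 N clones each. Clones are named here by animal and number, so 22-5 is clone 5 of animal 22. Clones of 1 animal share that animal, and p-values measure the spread between clones of 4 animals, not between 20 animals.

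Total counts per clone ranged from 14615493 to 29185355 in A clones and from 14908802 to 43111345 in N clones, with like medians (16112862 and 16316703.5). Levels are TMM-scaled CPM (counts relative to library size) and serve to compare 1 gene between clones. CPM is not corrected for transcript length, so levels of different genes are not compared. A and N clones were compared with edgeR's quasi-likelihood test, with the animal as a block and p-values adjusted by Benjamini-Hochberg over all 12900 genes that passed a filter on low counts. Positive log2 fold changes are higher in A clones. Of the 10 genes, 8 passed that filter, and PLIN4 and G0S2 did not. The stromal identity in the labels was checked first. Transcripts of ITGB1, NT5E, CD44, THY1, ENG, PDGFRA, PDGFRB, COL1A1 and COL1A2 were detected in all 20 clones, and 0 of these 9 passed the A against N test. THY1 and NT5E were close to 0, and ENG was lowest, in N clone 22-5, 1 of the keratin-rich pair described below. Among N clones THY1 ranged from 0.395 to 204 CPM, NT5E from 0.508 to 409 CPM and ENG from 19.1 to 661 CPM. Of transcripts that define a mature fat cell, PCK1 and RETN were at 0 counts in all 20 clones and ADIPOQ at no more than 1.52 CPM. FABP4 reached 25.4 CPM and LPL 90.6 CPM, both in N clone 20-15. Neither passed the A against N test (adjusted p = 0.357 and 0.115, edgeR's quasi-likelihood test). N clones 22-5 and 22-9 stood apart from the other N clones, with 4779 and 2727 CPM of KRT8, a keratin of mesothelial and other epithelial cells, against no more than 2.83 CPM in the other 8. Results that rest on this pair are given with and without it.

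In undifferentiated A clones the droplet coat transcripts PLIN1 and PLIN2 were higher than in N clones, and PLIN3 was lower. Of the 8 tested genes these 3 passed the adjusted p of 0.05, 2 higher and 1 lower in A clones, beside 20.6% of all genes tested (10.3% in each direction). Of the 4 tested genes of lipolysis, 0 passed it in this fit. No member passed both the adjusted p and a 2-fold change, which 5.76% of all genes did, and in none of the 8 did A and N clones separate without overlap, as in 0.318% of all genes. Without adjustment, 5 of the 8 had a p under 0.05, beside 36.1% of all genes. The log2 fold change was positive in 5 of the 8, beside 48.8% of all genes. The median of the 8 was 0.39 and that of all genes tested was -0.01.

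PLIN2 encodes the perilipin found on droplets of nearly all cell types, and it was the coat transcript with the larger change. Its level was lowest at 43.6, in the middle at 82.2 and highest at 117 CPM among A clones, against 18.6, 47.2 and 85.8 CPM among N clones. The groups overlapped: 5 A clones exceeded the highest N clone, and the 2 lowest N clones were 22-5 and 22-9 at 18.6 and 29.5 CPM. On average PLIN2 was at 81.6 ± 22.8 CPM in A clones and 50.2 ± 22.4 CPM in N clones (SD, n = 10 each). The difference was 1.66-fold, a log2 fold change of 0.73 with a standard error of 0.241 (95% interval 0.22 to 1.24, adjusted p = 0.0413, edgeR's quasi-likelihood test). It pointed the same way in animals 20, 22 and 23 (0.45, 1.19 and 0.70 on the log2 scale) and the other way in animal 17 (-0.15), where the single N clone held 82.2 CPM and the single A clone 74.1 CPM. Without 22-5 and 22-9 the log2 fold change was 0.51 and no longer passed the test (adjusted p = 0.0732).

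PLIN1, the perilipin of white fat cells that gates lipolysis, was present in every clone at low counts (33 to 160 per clone). Among A clones it ranged from 3.31 to 6.30 CPM with a median of 4.54, and among N clones from 1.86 to 4.44 CPM with a median of 3.01. Clones 22-16 and 22-11 were the highest A clones and 22-5 the lowest N clone, and 5 A clones exceeded the highest N clone. Means were 4.48 ± 1.04 and 3.16 ± 0.909 CPM (SD, n = 10 each), a log2 fold change of 0.53 with a standard error of 0.178 (95% interval 0.15 to 0.91, adjusted p = 0.0456, same test). Each of the 4 animals had more PLIN1 in its A clones, by 0.49, 0.21, 0.92 and 0.19 on the log2 scale in animals 17, 20, 22 and 23. The end of PLIN1 overlaps PEX11A in the RefSeq annotation by 40 bases. PEX11A itself differed little (log2 fold change of 0.02, adjusted p = 0.935).

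PLIN3, a perilipin that is soluble in the cytosol and moves to nascent droplets, went the other way. Its lowest, median and highest levels were 14.4, 22.7 and 29.4 CPM in A clones, and 22.3, 29.6 and 38.6 CPM in N clones. In A clones 17-57, 20-106, 23-14 and 23-68 it lay between 14.4 and 15.3 CPM, below every N clone, while the other 6 lay at 22.5 CPM or more, within the range of the N clones. Mean levels were 21.0 ± 5.80 CPM in A clones and 28.8 ± 5.33 CPM in N clones (SD, n = 10 each). PLIN3 was thus 1.38-fold higher in N clones (log2 fold change -0.47, standard error 0.142, 95% interval -0.77 to -0.17, adjusted p = 0.0282, edgeR's quasi-likelihood test). Each of the 4 animals had less PLIN3 in its A clones, with differences of -0.63, -1.02, -0.20 and -0.59 on the log2 scale in animals 17, 20, 22 and 23.

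These 3 calls were close to the threshold. When 1 clone at a time was left out, PLIN3 was lost without N clones 17-23, 20-15 and 23-74 and A clone 20-106 (largest adjusted p 0.0586). PLIN2 was lost in 12 of the 20 such fits (largest adjusted p 0.0842 from the same test), those without N clones 20-15, 22-9, 22-17, 23-10, 23-22 and 23-74 and A clones 20-106, 22-11, 22-16, 22-27, 23-14 and 23-68. PLIN1 was lost in 14 (largest adjusted p 0.0870), and passed only without N clones 20-15, 23-23 and 23-74 or A clones 22-121, 23-62 and 23-68. All 3 kept their direction in each of these fits.

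Proliferation moved with the same contrast. Of 10 proliferation markers 7 were lower in A clones and 0 higher (median log2 fold change -1.28), and their summed level ranged from 34.4 to 370 CPM in A clones and from 126 to 618 CPM in N clones. Their part in the differences of the coat transcripts was not tested. The transcripts whose levels followed PLIN3 most closely over the 20 clones were PHF19, CCNA2 and CDC20 (Pearson r 0.901, 0.877 and 0.876). For PLIN2 they were CCDC80, HSPB6 and GEM (0.897, 0.892 and 0.886), and for PLIN1 they were CMTM3, C3H1orf52 and SLC25A32 (0.822, 0.814 and 0.805). These r-values were the highest among 12899 genes, and over the 20 clones they include the difference between A and N clones. With the mean of each animal and condition removed, over the 16 clones of animals 22 and 23, they were 0.826, 0.746 and 0.762 for PLIN3, 0.901, 0.897 and 0.913 for PLIN2, and 0.697, 0.751 and 0.732 for PLIN1. They are given as a description.

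**Figure D1:**
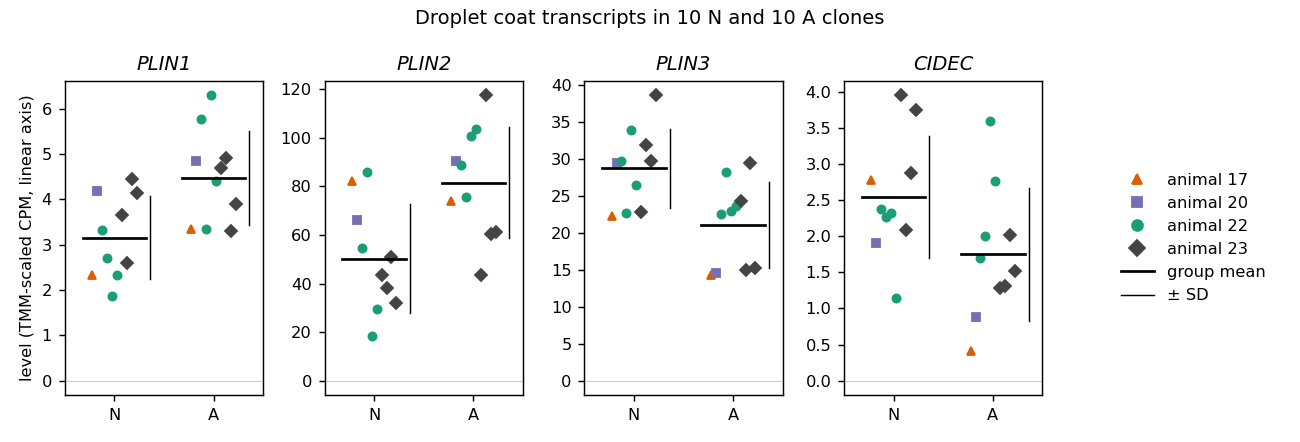
Levels of PLIN1, PLIN2, PLIN3 and CIDEC in the 10 N and 10 A clones, in TMM-scaled CPM on linear axes that differ between panels. Symbols mark the animal, thick lines the group means and thin lines ± 1 SD; PLIN1 and PLIN2 means lie higher in A clones and PLIN3 and CIDEC means lower, with overlap of the groups in each panel.

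CIDEC, which fuses small droplets into large ones in white fat cells, had few counts (6 to 89 per clone). Its levels ran from 0.409 to 3.59 CPM in A clones (median 1.61) and from 1.14 to 3.95 CPM in N clones (median 2.34). The 2 lowest clones of all were the A clones of animals 17 and 20 at 0.409 and 0.882 CPM. Means of 1.75 ± 0.917 and 2.54 ± 0.839 CPM (SD, n = 10 each) gave a log2 fold change of -0.64 with a standard error of 0.297, which did not pass (95% interval -1.27 to -0.01, adjusted p = 0.129, edgeR's quasi-likelihood test). In animals 17, 20 and 23 the A clones were lower (-2.49, -1.02 and -0.98 on the log2 scale), and in animal 22 they were higher (0.30). Fitted without animal 22, CIDEC passed the test (log2 fold change -1.29, adjusted p = 0.0247), as did 11.5% of all genes tested. Animal 22 was the only animal with the other sign, so leaving it out enlarges the difference by construction.

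PLIN4, a perilipin of fat and muscle that coats new droplets, was at 0 counts in 14 of the 20 clones. A count of 0 allows up to 3 counts, which is at most 0.189 CPM in these N clones. The 6 clones with any count were A clones 22-11 (18 counts) and 22-16 (1 count) and N clones 22-9 (8 counts), 22-5 (2 counts), 17-23 and 20-15 (1 count each). Its 2 highest clones, at 0.650 and 0.480 CPM, were thus 1 A and 1 N clone of animal 22, both with over 100 CPM of KRT8. Means were alike at 0.0713 and 0.0709 CPM in A and N clones, and most clones lie below what a count of 0 allows. A further reason for caution is that PLIN4 overlaps HDGFL2 by 20 bases in the RefSeq annotation, and HDGFL2 held 610 to 2381 counts per clone.

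**Figure D2:**
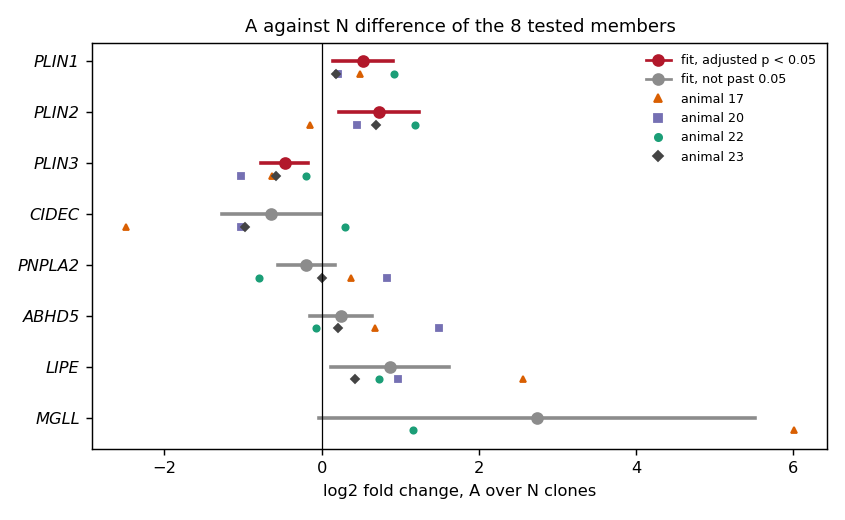
Log2 fold change of A over N clones for the 8 tested genes: large points are the fitted values over 20 clones with the animal as a block, bars their 95% intervals, and small symbols the difference of mean log2 CPM within each animal, left out where the N clones of that animal hold at most 3 counts of the gene (MGLL in animals 20 and 23). PLIN1, PLIN2 and PLIN3 have an adjusted p under 0.05, and the animals point to both sides of 0 for PLIN2, CIDEC, PNPLA2 and ABHD5.

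The lipolysis genes did not differ as a block. PNPLA2, the lipase of the first step, was about level between A and N clones, LIPE, MGLL and ABHD5 had higher means in A clones without passing the test, and G0S2 was barely detected. LIPE, MGLL and ABHD5 passed once the keratin-rich N clones 22-5 and 22-9 were left out, and MGLL also did by other tests with the pair kept, given below. In that fit PLIN1, PLIN2 and PLIN3 did not pass (adjusted p = 0.144, 0.0732 and 0.0549, edgeR's quasi-likelihood test), so the count of members past the threshold was 3 with and without the pair, but they were different genes. In the fit without the pair 14.2% of all 13114 genes tested passed. The pair held the highest N levels of MGLL and ABHD5, so leaving it out lowers their N means by construction.

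PNPLA2 had its 2 highest levels in the A clones of animals 20 and 17, at 46.1 and 37.3 CPM, while the other 8 A clones lay between 13.8 and 24.0 CPM. N clones lay between 16.0 and 34.4 CPM, with a median of 23.2 against 16.8 CPM in A clones. The groups overlapped widely, with means of 22.0 ± 11.0 and 23.7 ± 5.92 CPM (SD, n = 10 each). The log2 fold change was -0.20 with a standard error of 0.171 (95% interval -0.56 to 0.17, adjusted p = 0.424, same test).

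Animals disagreed on PNPLA2. In animal 22 all 4 A clones (13.8 to 16.6 CPM) lay below all 4 N clones (22.1 to 34.4 CPM), a difference of -0.80 on the log2 scale. Fitted in animal 22 alone, PNPLA2 did not pass (log2 fold change -0.83, adjusted p = 0.0621, edgeR's quasi-likelihood test), and 1.15% of all genes did. How many genes separate this way within animal 22 was not counted. In animal 23 the A clones (13.8 to 24.0 CPM) and N clones (16.0 to 20.5 CPM) overlapped, with a difference of 0.01, and in animals 17 and 20 the A clone was higher by 0.37 and 0.84. The difference between animals 23 and 22 in the A against N change was 0.85 with a standard error of 0.247 (unadjusted p = 0.0039, adjusted p = 0.333, edgeR's quasi-likelihood test of the interaction over 16 clones). No member passed the adjusted p in that test, as 0.0310% of all genes did, and CIDEC, PNPLA2 and MGLL had an unadjusted p under 0.05, beside 9.06% of all genes. With all 4 animals in the interaction, PNPLA2 again missed the threshold (unadjusted p = 0.00157, adjusted p = 0.0813), as did CIDEC (unadjusted p = 0.00473, adjusted p = 0.118, same kind of test). In that test 0.814% of all genes passed the adjusted p and 17.8% had an unadjusted p under 0.05.

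ABHD5, the co-activator of ATGL, spread from 7.60 to 18.7 CPM in A clones (median 11.3) and from 6.57 to 18.3 CPM in N clones (median 8.63). Clones 22-5 and 22-9 held the highest N values, 18.3 and 16.3 CPM, and the other 8 N clones lay at 9.77 CPM or below. Of the A clones 20-106 was highest at 18.7 CPM. Means were 11.7 ± 3.09 and 9.95 ± 4.00 CPM (SD, n = 10 each), and the log2 fold change of 0.25 did not pass (standard error 0.185, adjusted p = 0.348, edgeR's quasi-likelihood test). Without 22-5 and 22-9 it was 0.49 and passed (adjusted p = 0.0402). Since the pair held the highest N values, leaving it out lowers the N mean by construction. Without all 5 clones over 100 CPM of KRT8 (the pair and A clones 22-11, 22-16 and 23-62) it was 0.60 (adjusted p = 0.0335).

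G0S2, the inhibitor of ATGL, was at 0 counts in all 10 N clones. Among A clones 6 held 1 to 3 counts, 10 counts in all, and the other 4 held 0. No clone exceeded the 3 counts that a count of 0 allows, so no fold change is given. The gene passed the test only in a fit without the filter on low counts (adjusted p = 0.0383), where 11.8% of all genes passed.

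LIPE, the hormone-sensitive lipase, was low in most clones and high in a few. Its lowest, median and highest levels were 1.39, 1.88 and 8.58 CPM in A clones and 0.672, 1.31 and 3.47 CPM in N clones. A clones 17-57 (8.58 CPM) and 23-108 (7.14 CPM) lay above every N clone, and the other 8 A clones lay within the range of the N clones, at 3.28 CPM or below. Means were 3.15 ± 2.58 and 1.60 ± 0.942 CPM (SD, n = 10 each), a log2 fold change of 0.87 with a standard error of 0.353 that did not pass (95% interval 0.12 to 1.62, adjusted p = 0.0873, edgeR's quasi-likelihood test). All 4 animals had the higher mean in A clones, by 2.57, 0.97, 0.72 and 0.42 on the log2 scale in animals 17, 20, 22 and 23. Without N clone 22-9 LIPE passed (1.08, adjusted p = 0.0419), as it did without the pair 22-5 and 22-9 (1.14, adjusted p = 0.0490) and without the 5 clones over 100 CPM of KRT8 (1.37, adjusted p = 0.0448).

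**Figure D3:**
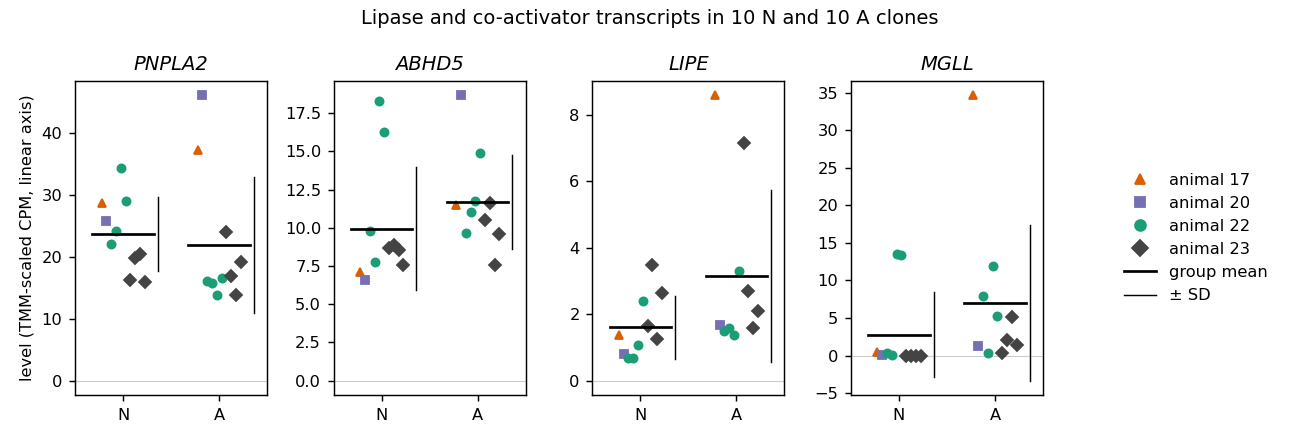
Levels of PNPLA2, ABHD5, LIPE and MGLL in the 10 N and 10 A clones, in TMM-scaled CPM on linear axes that differ between panels, with symbols for the animal, thick lines for group means and thin lines for ± 1 SD (the SD of MGLL exceeds its mean). In PNPLA2 all 4 A clones of animal 22 sit below its 4 N clones, and in MGLL N clones 22-5 and 22-9 sit at 13.5 and 13.4 CPM while the other 8 N clones are at 0.436 CPM or below.

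MGLL, the lipase of the last step, had the highest coefficient of variation of the 8 tested genes, 147% in A clones and 202% in N clones. It was detected in all 10 A clones, at 0.365 CPM in the lowest, 3.62 CPM at the median and 34.7 CPM in the highest (17-57). In N clones it was at 0 counts in all 4 clones of animal 23, at 1 to 8 counts in 4 more, and at 13.5 and 13.4 CPM in 22-5 and 22-9. The median of the N clones was 0.0741 CPM. Except for that pair, every N clone was at or below 0.436 CPM, and 8 of the 10 A clones were at 1.23 CPM or more.

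Over all 20 clones MGLL was at 7.05 ± 10.4 CPM in A clones and 2.78 ± 5.63 CPM in N clones (SD, n = 10 each). The fitted log2 difference was 2.74 ± 1.30 (standard error) and did not pass (95% interval -0.04 to 5.51, adjusted p = 0.140, edgeR's quasi-likelihood test). Without 22-5 and 22-9 it was 5.80 and passed (adjusted p = 0.00175). This fitted value depends on how counts near 0 are treated and is no bound. In animal 23, where N clones held no count, A clones averaged 2.26 CPM, at least 13.1-fold higher than 3 counts per N library. Within animal 22 the means were alike, 6.40 and 6.82 CPM, since its N clones were 22-5 and 22-9 at 13.5 and 13.4 CPM and 22-17 and 22-18 at 0.314 and 0.0255 CPM. Over the same 20 clones MGLL was called by DESeq2 with the animal block (4.04, adjusted p = 0.00224) and by limma-voom with the animal as a random effect (3.83, adjusted p = 0.0414).

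High MGLL and high KRT8 occurred together in several clones. Each of the 5 clones over 100 CPM of KRT8 held at least 5.15 CPM of MGLL: N clones 22-5 and 22-9 and A clones 22-16 (12.0 CPM of MGLL), 22-11 (7.95) and 23-62 (5.15). A clone 22-27, not over 100 CPM of KRT8, held 5.32 CPM of MGLL, more than 23-62. The clone with the most MGLL, A clone 17-57 at 34.7 CPM, had 0 counts of KRT8. Of the 8 mesothelial markers 6 were tested, of which 1 was lower in A clones and 0 higher, and the sum of the 8 ranged from 7.73 to 1095 CPM in A clones and from 8.82 to 9198 CPM in N clones, with CALB2 at no more than 1 count in any clone. Their part in the MGLL difference was not tested. The N pair held the highest MGLL levels among N clones, so leaving it out lowers the N mean by construction. Without all 5 clones over 100 CPM of KRT8, MGLL did not pass the filter on low counts and was not tested.

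**Figure D4:**
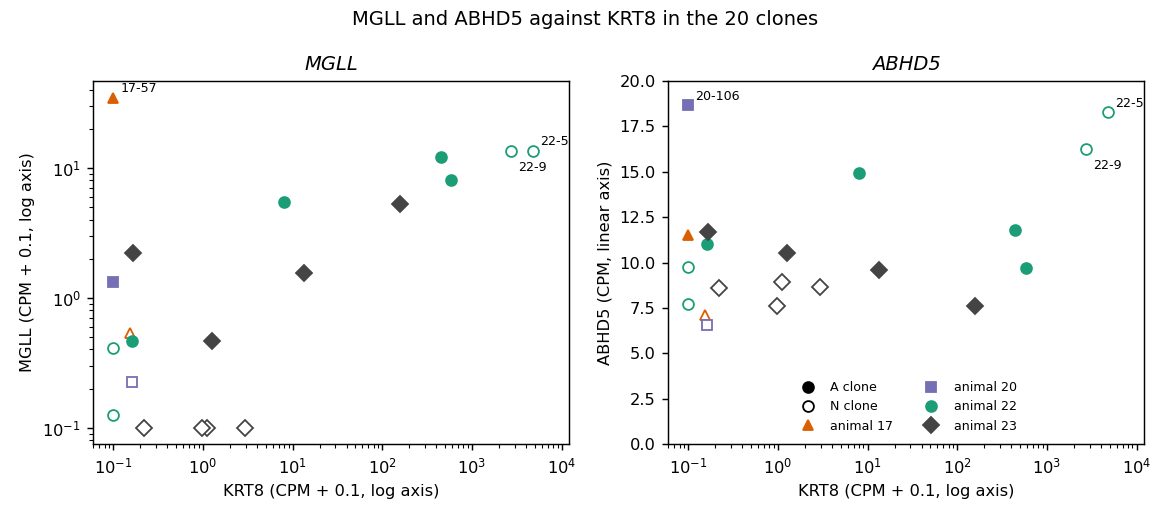
MGLL (left, CPM + 0.1 on a log axis) and ABHD5 (right, CPM on a linear axis) against KRT8 (CPM + 0.1 on a log axis) in each of the 20 clones, with filled symbols for A clones, open symbols for N clones and shapes for animals. N clones 22-5 and 22-9 sit at the right with high KRT8, MGLL and ABHD5, and A clone 17-57 has the highest MGLL, 34.7 CPM, with no KRT8 count.

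Ratios of transcripts within a clone need no scaling between libraries and set a lipase against its co-activator or 1 coat against another. Of 6 ratios chosen, the one of G0S2 to PNPLA2 could not be tested because G0S2 was near 0, and the other 5 were tested by permuting A and N labels within animals over all 19600 arrangements (two-sided, smallest possible p 0.000102). The ABHD5 to PNPLA2 ratio, co-activator to lipase, was 1.39-fold higher in A clones (log2 difference 0.47, exact permutation p = 0.00153, adjusted p = 0.00383 over the 5 ratios). The ratio was higher in each animal, by 0.32, 0.66, 0.74 and 0.20 on the log2 scale in animals 17, 20, 22 and 23, and 5 A clones exceeded the highest N clone. The 2 genes did not move alike between animals. In the same order ABHD5 differed by 0.68, 1.49, -0.07 and 0.21, and PNPLA2 by 0.37, 0.84, -0.80 and 0.01. Neither gene alone passed the test over all genes. Among the 12899 other tested genes, the ratio to PNPLA2 was higher in A clones at an exact permutation p under 0.05 for 21.7%, and 5.47% had a p at or below that of ABHD5 in either direction.

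LIPE and MGLL were also higher relative to PNPLA2 in A clones. The LIPE to PNPLA2 ratio differed 2.07-fold (log2 difference 1.05, exact permutation p = 0.00837, adjusted p = 0.0105), and 11.5% of all genes had as small a p. For MGLL to PNPLA2 the log2 difference was 4.08 (exact permutation p = 0.00306, adjusted p = 0.0051), with 0.5 added to each count, and 7.47% of all genes had as small a p. Both had the higher mean in the A clones of each animal. These 3 ratios share PNPLA2 as their denominator and are not separate pieces of evidence.

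Among coats, the PLIN3 to PLIN2 ratio was 2.41-fold lower in A clones (log2 difference -1.27, exact permutation p = 0.00112, adjusted p = 0.00383). In 7 A clones it lay below every N clone, and the A clones of each animal had the lower mean (-0.48, -1.48, -1.39 and -1.29 on the log2 scale in animals 17, 20, 22 and 23). A lower ratio to PLIN2 was common, since PLIN2 itself was higher: 66.7% of the other genes had one at an exact permutation p under 0.05, and 16.5% had a p at or below that of PLIN3. PLIN1 to PLIN2 did not differ past the threshold (log2 difference -0.26, exact permutation p = 0.252, with a p as small in 86.0% of the other genes), so the 2 perilipins that were higher in A clones were not shown to change by unequal amounts.

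Clones of 1 kind from 1 animal also differed among themselves. PLIN2 ranged from 43.6 to 117 CPM in the 4 A clones of animal 23 and from 18.6 to 85.8 CPM in the 4 N clones of animal 22. LIPE ranged from 1.59 to 7.14 CPM in the A clones of animal 23, and PNPLA2 from 13.8 to 16.6 CPM in the A clones of animal 22. Whether members rose and fell together between such clones was examined in the 16 clones of animals 22 and 23, with the mean of each animal and condition removed. Of 28 pairs of the 8 tested genes, 0 passed an adjusted p of 0.05 by Pearson's r or by Spearman's rho (permutation within animal and condition). The strongest was PNPLA2 with ABHD5 (r = 0.631, permutation p = 0.0397, adjusted p = 0.274, and rho = 0.718, permutation p = 0.0131, adjusted p = 0.148). Without the 2 clones farthest from the median of PNPLA2, r was 0.634 (permutation p = 0.130), and without 22-5 and 22-9 it was 0.381 (permutation p = 0.297). PLIN2 and PLIN3 had the lowest r, -0.585 (permutation p = 0.0262, adjusted p = 0.274, and rho = -0.591, permutation p = 0.0324, adjusted p = 0.227), which was -0.507 (permutation p = 0.186) without the 2 clones farthest from the median of PLIN2.

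The other genes of the droplet and of lipolysis were taken from fixed lists. Of the 84 tested genes in 5 lists, 10 were higher and 10 lower in A clones, beside 10.3% of all genes in each direction. Without 22-5 and 22-9, 9 were higher and 6 lower, and 13 of these 15 were among the 20. The 7 that no longer passed were BSCL2, FAF2, LSS, NR1H3, PDE3B, PPARA and SQLE (adjusted p 0.0591 to 0.174, edgeR's quasi-likelihood test). Among 23 tested lipid droplet genes, 4 were higher and 5 lower, with a median log2 fold change of -0.03. The higher ones were CIDEA, HILPDA, FAF2 and AUP1. CIDEA, a relative of CIDEC found on the droplets of brown fat, was at 5.84 ± 2.38 CPM in A clones and 1.63 ± 0.999 CPM in N clones (SD, n = 10 each), and 7 A clones exceeded the highest N clone (log2 fold change 1.79, standard error 0.361, adjusted p = 0.00378, edgeR's quasi-likelihood test). HILPDA, a droplet protein induced by hypoxia that inhibits ATGL, was at 6.54 ± 3.93 and 1.88 ± 1.96 CPM (1.82, standard error 0.431, adjusted p = 0.00897), so of the ATGL inhibitors named here it was the one with measurable counts.

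FAF2 and AUP1, proteins that sit on droplets and act in protein degradation, differed by less (0.35 and 0.25 on the log2 scale, adjusted p = 0.0230 and 0.0125 from the same test). Of the 5 lower genes, LSS (-1.36, adjusted p = 0.0177) and SQLE (-1.25, adjusted p = 0.05, just under the threshold before rounding) are enzymes of sterol synthesis that can sit on droplets. BSCL2, which encodes seipin and is needed to form droplets, was lower too (-0.35, adjusted p = 0.0318), as were LDAH (-0.33, adjusted p = 0.0159), a droplet hydrolase, and VPS13C (-0.47, adjusted p = 0.00938), a lipid transfer protein. PLIN5, the perilipin of oxidative tissues, was at 0 counts in all 20 clones.

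Of 15 other lipases and hydrolases, 1 was higher in A clones and 0 lower, with a median log2 fold change of 0.10. It was ABHD12, a serine hydrolase of lysophospholipids and monoglycerides, at 80.3 ± 11.0 CPM in A clones and 59.3 ± 7.22 CPM in N clones (SD, n = 10 each), with 9 A clones above the highest N clone (0.43, standard error 0.0759, adjusted p = 0.00183, edgeR's quasi-likelihood test). Its mean was higher in the A clones of each animal.

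Among 26 tested genes that control lipolysis, 1 was higher and 2 lower in A clones (median log2 fold change -0.04). The phosphodiesterases that break down cAMP, the signal that starts lipolysis, went in opposite directions. PDE3B, the form through which insulin restrains lipolysis, was at 4.72 ± 10.8 CPM in A clones and 35.9 ± 41.0 CPM in N clones (SD, n = 10 each), and ranged from 0.0614 to 86.6 CPM among N clones (log2 fold change -2.63, standard error 0.710, adjusted p = 0.0175). PDE3A was at 24.1 ± 5.41 and 12.0 ± 6.01 CPM (1.05, standard error 0.263, adjusted p = 0.0117). NPR3, which clears natriuretic peptides, was at 103 ± 111 CPM in A clones and 570 ± 380 CPM in N clones, and 7 A clones were below the lowest N clone (-2.79, standard error 0.499, adjusted p = 0.00204).

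ADRB3, the adrenergic receptor of fat cells, held at most 1 count in any clone. The catalytic subunits of protein kinase A had log2 fold changes of -0.16 (PRKACA, adjusted p = 0.138) and 0.12 (PRKACB, adjusted p = 0.381, edgeR's quasi-likelihood test), and neither passed.

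Of 10 tested genes known to respond to PPAR receptors in fatty acid handling, 1 was higher in A clones, TXNIP (1.18, adjusted p = 0.0134), and 0 were lower. TXNIP was at 50.6 ± 42.9 CPM in A clones and 38.1 ± 60.5 CPM in N clones (SD, n = 10 each), and without the animal block its log2 fold change was 0.41 and did not pass (adjusted p = 0.712, edgeR's quasi-likelihood test). Of 10 tested transcription factors with known sites in member genes, 3 were higher and 3 lower. The higher ones were PPARG, the factor that directs fat cell formation and acts on perilipin genes (10.3 ± 5.66 CPM in A clones and 0.934 ± 1.91 CPM in N clones, log2 fold change 3.77, adjusted p = 0.00486, edgeR's quasi-likelihood test), HIF1A (1.01, adjusted p = 0.00221) and NR1H3 (0.42, adjusted p = 0.0366). SREBF1, CEBPB and PPARA were lower (-0.92, -0.89 and -0.55, adjusted p = 0.00519, 0.00668 and 0.0301). CEBPA did not pass the filter, at 1.31 ± 1.69 and 0.373 ± 0.498 CPM. With only 10 genes in a list, these counts describe the genes named and not the list.

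**Figure D5:**
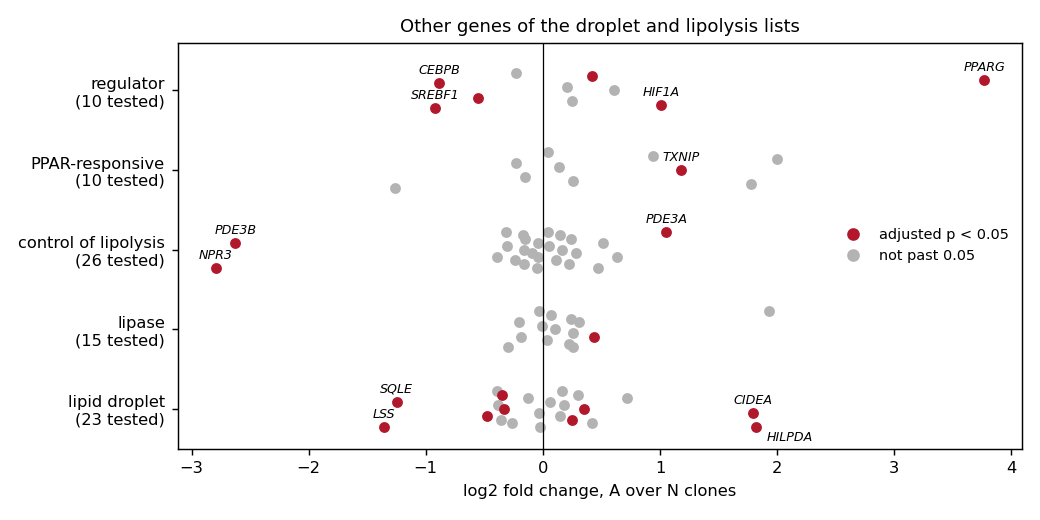
Log2 fold change of A over N clones for each tested gene of 5 lists (84 genes), with red points for an adjusted p under 0.05 and grey points for the rest; vertical position within a list has no meaning. Of the called genes 10 lie to the right and 10 to the left of 0, PPARG farthest right at 3.77 and NPR3 farthest left at -2.79.

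Markers of other cell types were read beside these results. Of the 11 markers of mature fat cells 5 were tested, and the 2 that passed were PLIN1 and CIDEA, described above. Their sum ranged from 21.3 to 99.5 CPM in A clones and from 4.97 to 124 CPM in N clones. Of the 9 macrophage markers only CD68 passed the filter, higher in A clones (1.06, adjusted p = 0.0157, edgeR's quasi-likelihood test), with PTPRC at 0 counts in 18 of the 20 clones and LYZ at 0 in all 20. CSF1R, left out by the filter, was at 0.476 to 2.38 CPM in A clones and 0 to 0.255 CPM in N clones, so the groups did not overlap. CD163 was at 1.22 ± 1.24 and 0.279 ± 0.507 CPM in A and N clones, and CD14 ranged from 0.0366 to 4.88 CPM in A clones and from 0 to 6.57 CPM in N clones. The sum of the 9 ranged from 2.82 to 12.6 CPM in A clones (median 8.58) and from 0.885 to 10.9 CPM in N clones (median 2.49). Of the smooth muscle and pericyte markers 2 of 6 tested were higher and 0 lower, and the sum of the 7 listed ranged from 4366 to 11707 CPM in A clones and from 1085 to 10053 CPM in N clones. Of the endothelial markers 0 of 4 tested passed, with the sum of the 6 listed between 5.25 and 70.1 CPM in A clones and between 1.13 and 41.7 CPM in N clones. The part of these markers in the coat and lipase differences was not tested, and a larger share of cells with a transcript and more of it per cell cannot be told apart in libraries of whole clones.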

How the data were processed

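RNA of 20 undifferentiated clones was sequenced as paired reads on a NovaSeq. Per the submitters' processing notes, bcl2fastq 2.20, Trimmomatic 0.36, STAR 2.5.2b, Subread 1.5.2 and build ARS-UCD1.2 were used. What the authors deposited are raw counts of unique reads in exons, by gene. The kit marks strand, but the strand setting of the counting is not given in the sources used here, so genes that overlap are uncertain. A row without a gene name held 0.113% to 0.333% of a clone's counts and was left out.

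From these counts, edgeR 4.0.16 (R 4.3.3) was run over the whole table with TMM scaling, its default filter and a robust quasi-likelihood fit, with animal as a block. The groups are paired by animal. Once each group's mean was subtracted, A and N clones sharing an animal correlated over genes at 0.253 (animal 17), 0.193 (20), 0.241 (22) and 0.440 (23). A prior count of 2 was added for log2 CPM. A count of 0 was taken to allow up to 3 counts, which covers counting error only. Intervals are 95% intervals with 15 residual degrees of freedom. Ratios and correlations were tested by permutation with NumPy 2.4.6 (100000 resamples for correlations), and SciPy 1.17.1 gave the ranks for Spearman's rho. The edgeR, DESeq2 and limma-voom fits were checked on simulated counts. The permutation tests of ratios and correlations were checked on simulated normal values, not on counts.

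The 10 genes and all lists were chosen with earlier results of these data known. All 10 members are named. From the lists, genes past the adjusted p of 0.05 and a few partners of the members are named, up to 25, plus SQLE, named after its values were seen. The result of 1 listed gene is not reported here. Genes of most similar pattern are the 3 with the highest Pearson r for each member that passed. Alternatives were no animal block, other scalings and filters, DESeq2 1.42.0, limma-voom (limma 3.58.1), summed counts, single animals, and each animal and clone left out. Leaving out 22-5 and 22-9, or the clones over 100 CPM of KRT8, applying the alternatives to the lists, and the interaction over 4 animals or without the filter were added after seeing the data. Overlaps between genes come from RefSeq names on ARS-UCD2.0, another build, so no coordinates are given.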

Additional observations from a re-analysis of the deposited data

Results flagged for a closer look

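In PLIN4 single clones stood apart from their groups on the log2 scale. In A clones, 22-11 held 0.650 CPM (18 counts) against 0 to 0.0630 CPM in the other 9, and on the scale of log2 CPM with a prior count of 2 its gap to the next clone was 0.761 of the whole range. In N clones, 22-9 held 0.480 CPM (8 counts) against 0 to 0.113 CPM in the other 9, a gap of 0.574 of the range on that scale. Both exceed Dixon's critical value of 0.466 for 10 clones. Of 19 groups of values examined these 2 exceeded it, where chance gives about 1 in 20, or 0.95 groups, for normal values. PLIN4 was tied at 0 counts in 14 of the 20 clones, so its values are not normal. The critical value therefore cannot decide whether these 2 clones stand apart.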

How the results depend on the processing

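The member calls moved with the processing. Without the animal block 1 remained (PLIN3), without animal 17 1 (PLIN2), without animal 20 1 (PLIN1), and without animal 22 1, CIDEC. In these fits 16.8%, 18.2%, 18.9% and 11.5% of all genes tested passed. With counts summed per animal and condition, in animal 22 alone, in animal 23 alone and without animal 23, 0 members passed, beside 0.00%, 1.15%, 6.22% and 0.245% of all genes tested. In the summed counts 3 members and 2243 of all genes had an unadjusted p under 0.05 and 0 genes passed in edgeR. Leaving out each clone in turn gave 0 to 3 calls, beside 15.3% to 24.1% of all genes tested. It gave 0 without A clone 20-106, beside 18.9%. DESeq2 with the block and limma-voom each gave 4, adding MGLL, beside 27.4% and 19.9% of all genes tested. Adjusted p ranged over all alternatives from 0.0167 to 0.661 for PLIN1, 0.0131 to 0.339 for PLIN2 and 0.0126 to 0.453 for PLIN3, with no change of direction. CIDEC, PNPLA2, ABHD5 and MGLL, which did not pass over all 20 clones in edgeR's test with the block, changed sign in at least 1 alternative. The cause of these moves was not tested, but summed counts and single animals leave fewer samples.

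Of the 84 genes of the pathway lists, 20 passed, and 17 to 21 did so without 1 clone. Of the 20, leaving out 1 clone ended the call of SQLE in 13, NR1H3 in 11 and BSCL2 and PPARA in 5 each of the 20 fits, and of no other. The count was 0 with summed counts, 1 in animal 22 alone, 5 in animal 23 alone, 13 without animal 22, 0 without animal 23 and 10 without the 5 clones over 100 CPM of KRT8. No member passed the interaction test in the 5 alternatives and 16 fits without 1 clone, the same 4 ratios passed in 5 alternatives, including no block, and 20 fits without 1 clone, and 0 of 28 correlations passed in 4 alternatives. At this depth PLIN4 (0 to 18 counts) and G0S2 (0 to 3 counts) could not be tested.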
